A study of Mus musculus with 8 samples.

Results

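The genes described here encode 7 subunits of the GABA-A receptor: Gabra2, Gabra3, Gabra4 and Gabra5 (α subunits), Gabrb1 and Gabrb2 (β subunits) and Gabrd (the δ subunit). They were chosen by name, as every probe that was not a control and whose gene name on the array was one of these symbols, which gave 7 of 23686 gene symbols. GABA-A receptors are chloride channels opened by the inhibitory transmitter GABA, and each is a ring of subunits that usually joins α and β subunits with a γ or δ subunit. The subunits differ in place and kinetics. Many receptors with γ subunits cluster at synapses. Those with the δ subunit, and many of those with the α5 subunit, lie largely outside synapses and carry tonic inhibition. In rodent forebrain the α5 subunit is known for its high level in hippocampal pyramidal cells, and the δ subunit, often joined with α4, for its place in thalamic relay neurons, dentate granule cells and cortex.

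The study measured total RNA of brain cortex and hippocampus from naive mice of a genetic background labelled 129 C57BL6. The 4 groups were cortex of Tet1 knockout (KO) mice, cortex of wild-type (WT) mice, hippocampus of KO mice and hippocampus of WT mice, with 2 samples each. Tet1 encodes an enzyme that converts 5-methylcytosine of DNA into 5-hydroxymethylcytosine, and the KO groups were set against WT to see which transcripts change in each tissue. Each of 4 two-colour arrays carried 1 KO sample in Cy5 and 1 WT sample in Cy3 of one tissue. The labels give neither the age of the mice, nor the part of Tet1 removed, nor whether samples were separate animals, so the p-values cover only how far these samples differ among themselves, which may be technical variation.

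No dyes were swapped. A probe's dye bias therefore stays in its ratio of KO over WT, but it cancels where cortex is set against hippocampus of the same genotype and dye. Per array, 66.6% to 67.2% of spots in the KO channel and 49.7% to 51.7% in the WT channel were well above background, and saturation affected 0 spots. Genes entered the tests if their probe rose clearly over background in both samples of 1 group or more, which held for 16778 genes. The brightest Tet1 probe gave log2 ratios of KO over WT of -0.10 to -0.23 on the 4 arrays and did not pass the test in either tissue (limma, adjusted p = 0.225 in cortex and 0.234 in hippocampus). The other probe well above background in all 8 samples gave -0.30 to -0.18, and the remaining probe, well above background in 4 samples, gave 0.15 to 0.26. Whether any of them lies in the removed part is not known, so they do not check the genotype labels.

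The tissues carried their own markers. Of 11 markers of cortical excitatory neurons, 8 were higher in KO cortex than in KO hippocampus and 9 were higher in WT cortex than in WT hippocampus, and 9 of 10 markers of hippocampal fields were lower in cortex in each genotype. Exceptions that passed in the opposite direction were 1 cortical marker in each genotype and 1 hippocampal field marker in KO. These counts are of genes with a limma adjusted p under 0.05. Of all genes, 7.55% passed as higher and 7.28% as lower in KO cortex, and 7.19% and 7.77% in WT cortex. All 11 markers of the striatum were also higher in cortex in both genotypes, with a median log2 difference of 2.33 in KO and 2.59 in WT. Markers of the choroid plexus, which makes cerebrospinal fluid, varied among samples of one group. The mean log2 intensity of the 12 choroid plexus genes was 11.80 and 11.01 in KO cortex, against 11.18 and 8.84 in WT cortex, and 8.61 and 9.18 in KO hippocampus, against 8.50 and 12.16 in WT hippocampus. The second WT hippocampus sample stood apart in this list, and also in the 8 thalamic markers tested, where it had a mean of 11.56 against 10.31 in the other WT hippocampus sample and 10.11 to 10.15 in KO hippocampus. Results are therefore also given without the array that carries it. Summed scanner signals are set side by side only within a dye, since the 2 dyes differ in scale. Those of the choroid plexus list ran from 190911 to 337427 in KO cortex, against 11561 to 35019 in KO hippocampus, and from 9787 to 68363 in WT cortex, against 7919 to 169057 in WT hippocampus. Those of the thalamic list ran from 16237 to 16927 in KO cortex, against 14476 to 15078 in KO hippocampus, and from 8649 to 9363 in WT cortex, against 10508 to 25317 in WT hippocampus. Those of the striatal list ran from 283521 to 286479 in KO cortex, against 46272 to 56477 in KO hippocampus, and from 120633 to 157139 in WT cortex, against 26257 to 27167 in WT hippocampus. The part of these markers in the results on receptor subunits was not tested. In bulk tissue, fewer cells of a type and less RNA per cell cannot be told apart.

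**Figure D1:**
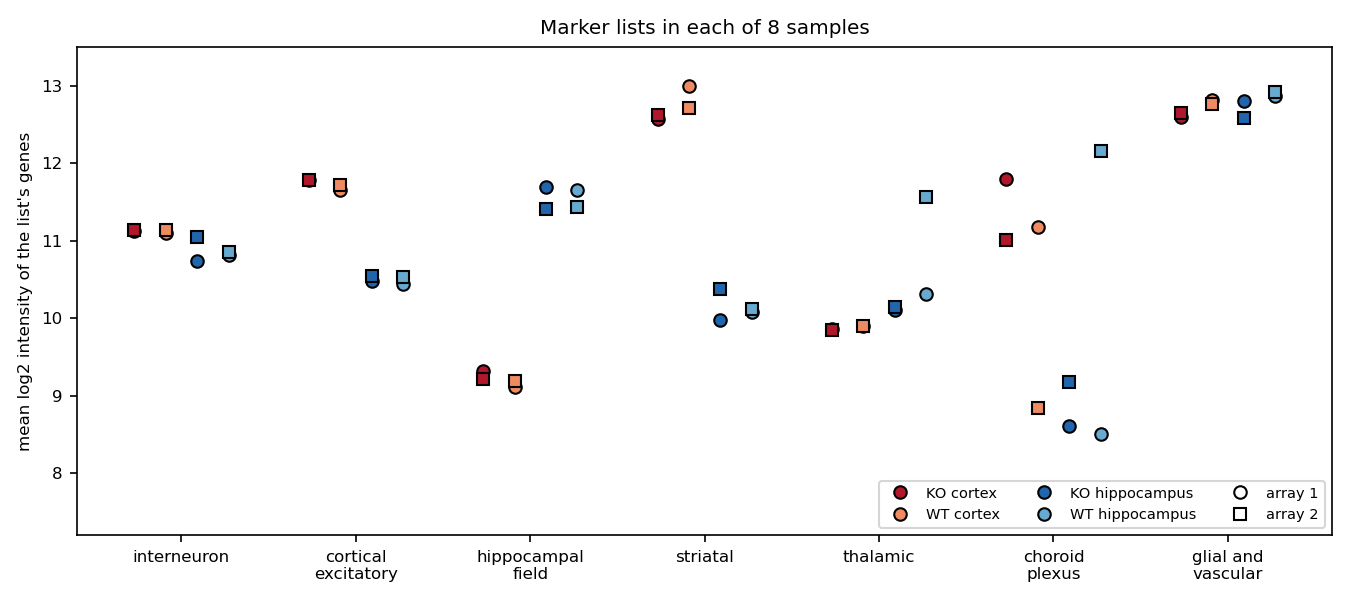
Mean log2 normalised intensity (y axis) of the genes of 7 marker lists (x axis) in each of 8 samples; colours give the 4 groups, circles array 1 and squares array 2 of a tissue. The second WT hippocampus sample lies at 12.16 for choroid plexus and 11.56 for thalamic markers, against 8.50 and 10.31 in the other WT hippocampus sample, and both cortex groups lie above both hippocampus groups for striatal markers.

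The 7 genes were represented by 9 probes, and the probe used for each gene was its brightest, which was well above background in all 8 samples. In mouse build mm9, as the files give it, these probes lie at chr5:71352275-71352334 (Gabra2, minus strand), chrX:69678031-69678090 (Gabra3, minus strand), chr5:71961055-71961114 (Gabra4, minus strand), chr7:64663486-64663545 (Gabra5, minus strand), chr5:72528086-72528145 (Gabrb1, plus strand) and chr11:42445782-42445841 (Gabrb2, plus strand). The Gabrd probe is placed only over chr4:154759071-154759089 (minus strand), 19 of its 60 bases. Exon and UTR annotation of mm9 was not used here. Gabra2 and Gabra3 had a second probe each. Both Gabra2 probes hold the following 29 bases (chr5:71352306-71352334, minus strand), shown because 2 probes that share a target sequence are not independent measurements of the transcript.
Gabra2 shared stretch: tcagctcacttcaatcattggaaactacc

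Promoters of genes that differed between the tissues are shown from the RefSeq table (GRCm38.p6), as the 250 bases before each start. CpG dinucleotides, the sites that Tet enzymes act on when methylated, are in capitals. The table held at least 1 entry for 6 of the 7 genes. Gabrd, which was higher in cortex, had no entry and is not shown. Gabra5, Gabrb1 and Gabra2 were lower in cortex, Gabra3 was higher, and Gabra4 is shown because its first bases overlap those of Gabrb1 on the other strand. The Gabra4 start (71658308, minus strand) lies 387 bases from the first Gabrb1 start (71657921, plus strand) on chromosome 5, and the genes run towards each other across that stretch. The windows are chr7:57510060-57510309 (minus strand), chr5:71657671-71657920 (plus strand), chr5:71095850-71096099 (minus strand), chrX:72656920-72657169 (minus strand) and chr5:71658309-71658558 (minus strand).
Gabra5: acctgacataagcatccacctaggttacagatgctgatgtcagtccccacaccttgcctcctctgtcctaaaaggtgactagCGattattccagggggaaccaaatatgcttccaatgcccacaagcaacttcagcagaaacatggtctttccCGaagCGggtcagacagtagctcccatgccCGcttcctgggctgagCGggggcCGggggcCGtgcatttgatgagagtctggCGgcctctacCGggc
Gabrb1: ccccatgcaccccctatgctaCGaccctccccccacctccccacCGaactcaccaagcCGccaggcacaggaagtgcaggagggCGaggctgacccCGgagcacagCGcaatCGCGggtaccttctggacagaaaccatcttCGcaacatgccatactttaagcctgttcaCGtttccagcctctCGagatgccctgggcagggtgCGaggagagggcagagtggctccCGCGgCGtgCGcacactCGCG
Gabra2: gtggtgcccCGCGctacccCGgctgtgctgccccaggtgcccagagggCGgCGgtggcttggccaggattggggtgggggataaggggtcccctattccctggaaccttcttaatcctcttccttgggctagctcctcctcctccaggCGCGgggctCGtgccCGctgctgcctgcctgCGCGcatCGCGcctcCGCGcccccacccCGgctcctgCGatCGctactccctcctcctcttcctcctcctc
Gabra3: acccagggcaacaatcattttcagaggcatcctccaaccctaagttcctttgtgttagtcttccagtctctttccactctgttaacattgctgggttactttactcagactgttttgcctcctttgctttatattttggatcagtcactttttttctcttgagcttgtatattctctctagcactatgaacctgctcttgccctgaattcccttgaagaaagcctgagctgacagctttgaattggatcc
Gabra4: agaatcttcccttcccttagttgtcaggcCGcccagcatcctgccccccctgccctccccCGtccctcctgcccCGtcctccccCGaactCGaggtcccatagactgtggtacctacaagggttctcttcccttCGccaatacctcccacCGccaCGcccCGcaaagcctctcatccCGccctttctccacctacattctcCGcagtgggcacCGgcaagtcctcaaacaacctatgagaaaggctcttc
The printed Gabrb1 and Gabra2 windows hold 18 CpG each, the second Gabrb1 entry 6, the Gabra4 window 12 and the Gabra5 window 9, against a median of 6 over all 32851 promoter windows of the table. Neither of the 2 Gabra3 entries holds a CpG, whereas 92.1% of all windows hold at least 1. The sequence TATAAA, searched on both strands, is in 1 of 3 Gabrb2 windows and in 12.4% of all windows. Both Gabra3 windows, which overlap each other, hold it at the same site, on the strand opposite to the printed one. The GC box letters GGGCGG, searched on both strands and overlapping a CpG, occur in the Gabra2 and Gabra4 windows and in 1 Gabrb2 window, against 32.7% of all windows. These counts describe the letters of the windows. Methylation of these windows was not analysed here.

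Between the tissues, 5 of the 7 subunit genes differed in each genotype, and in the same directions. Gabrd and Gabra3 were higher in cortex and Gabra5, Gabra2 and Gabrb1 were lower in cortex. The largest difference was that of Gabra5, which was 3.61-fold lower in KO cortex than in KO hippocampus and 3.37-fold lower in WT cortex than in WT hippocampus. Gabrd was 2.55-fold higher in KO cortex and 2.52-fold higher in WT cortex. Over all genes tested, 14.8% passed the test (limma on single channels, Benjamini-Hochberg adjusted p under 0.05) in KO cortex over KO hippocampus, 7.55% as higher and 7.28% as lower, against 2 members higher and 3 lower. In WT cortex over WT hippocampus 15.0% passed, 7.19% as higher and 7.77% as lower, again against 2 members higher and 3 lower. The median log2 difference of the 7 members was 0.17 in KO and 0.10 in WT, with opposite directions among them, against medians over all genes of -0.01 in KO and -0.03 in WT.

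**Figure D2:**
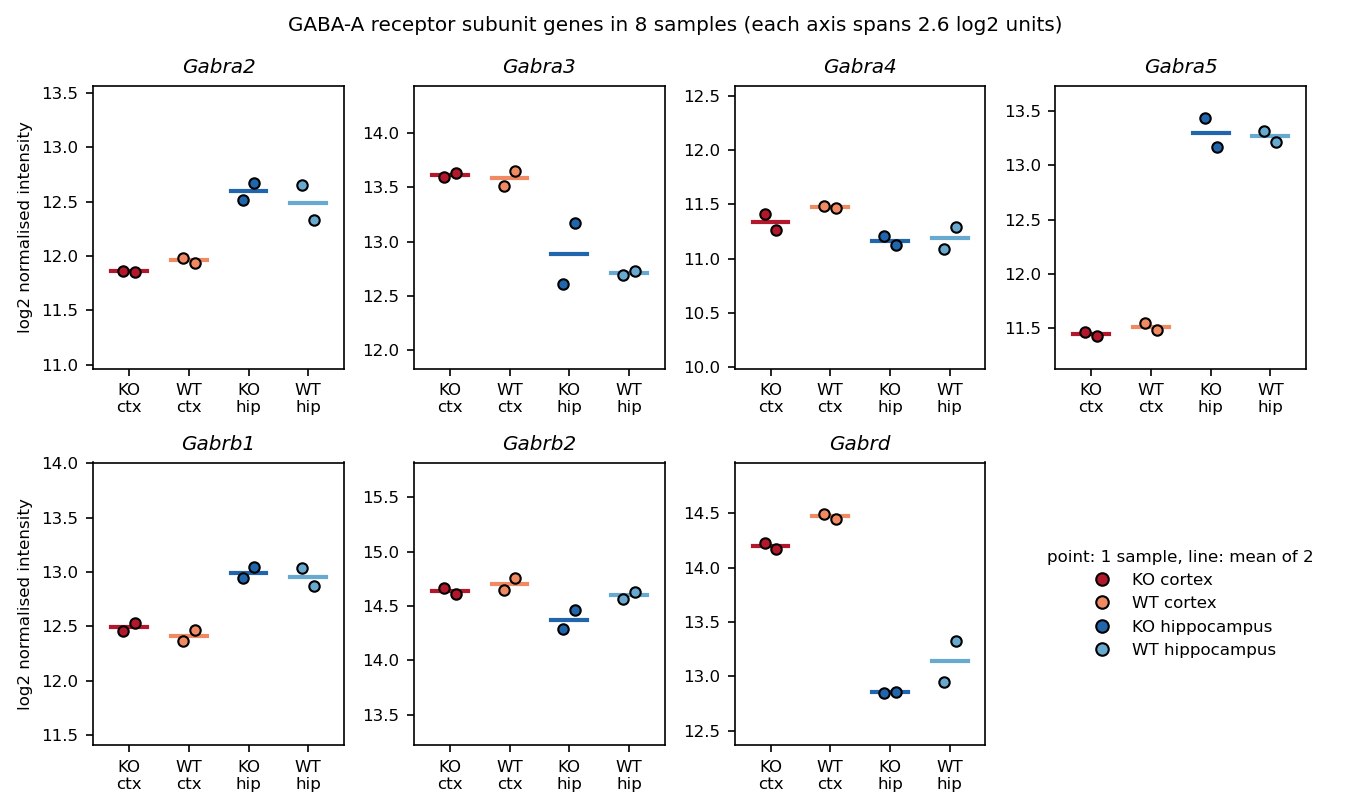
Log2 normalised intensity (y axis, the same span in every panel but a different range) of the 7 subunit genes in KO cortex (KO ctx), WT cortex (WT ctx), KO hippocampus (KO hip) and WT hippocampus (WT hip); points are samples and lines the means of 2. Gabra5 lies between 11.42 and 11.54 in the 4 cortex samples and between 13.16 and 13.43 in the 4 hippocampus samples, and Gabrd between 14.17 and 14.49 in cortex and between 12.84 and 13.33 in hippocampus.

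Among the α subunits, Gabra5 separated the tissues most. Its log2 normalised intensity was 11.47 and 11.42 in the KO cortex samples, against 13.43 and 13.16 in the KO hippocampus samples. In WT it was 11.54 and 11.48 in cortex, against 13.31 and 13.22 in hippocampus. All 4 cortex samples were below all 4 hippocampus samples by more than the spread within any group. Here and below, whether samples overlap is description only. The share of all genes whose samples did not overlap was not counted. The log2 difference was -1.85 ± 0.10 in KO (SE, n = 2 samples per group, limma adjusted p = 0.000126) and -1.75 ± 0.10 in WT (limma adjusted p = 0.000126). In each genotype 99.3% of the genes tested had a smaller difference, whatever its direction. The order of the group means was KO hippocampus, WT hippocampus, WT cortex and KO cortex, and the hippocampus groups overlapped. Within a tissue this order also holds the probe's dye bias.

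Gabra2, whose α2 subunit is known at synapses on the axon initial segment of pyramidal cells, was lower in cortex as well. It had 11.87 and 11.86 in KO cortex, against 12.52 and 12.68 in KO hippocampus, and in WT it had 11.98 and 11.94 in cortex, against 12.65 and 12.33 in hippocampus. The cortex and hippocampus samples did not overlap in either genotype, and the second WT hippocampus sample was the lowest of the 4 hippocampus samples. The log2 difference was -0.73 ± 0.12 in KO (SE, n = 2 per group, limma adjusted p = 0.00875) and -0.53 ± 0.12 in WT (limma adjusted p = 0.0305). The second Gabra2 probe, which holds the shared stretch printed above, gave -0.92 in KO and -0.66 in WT. In WT the call was lost without the first hippocampus array (-0.37, limma adjusted p = 0.0523) and with outlying local backgrounds kept (-0.39, limma adjusted p = 0.109), and it was -0.69 (limma adjusted p = 0.0102) without the array of the sample that stood apart. Fitting the WT dye alone also ended the WT call (limma adjusted p = 0.0775).

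Gabra3, an α subunit known in deep cortical layers and in the thalamic reticular nucleus, ran the other way. Its log2 intensity was 13.60 and 13.64 in KO cortex, against 12.61 and 13.17 in KO hippocampus. In WT it was 13.51 and 13.65 in cortex, against 12.69 and 12.73 in hippocampus. Every cortex sample was above every hippocampus sample, and the second KO hippocampus sample was the highest of the 4 hippocampus samples. The log2 difference was 0.73 ± 0.17 in KO (SE, n = 2 per group, limma adjusted p = 0.0295) and 0.87 ± 0.17 in WT (limma adjusted p = 0.0149). In KO it was 1.003 (limma adjusted p = 0.00666) without the second hippocampus array and 0.45 (limma adjusted p = 0.0530) without the first, where the call was lost, as it was with the KO dye fitted alone (limma adjusted p = 0.0648). The second Gabra3 probe was well above background only in the 4 KO samples, where its scanner signals were 115 to 217, and its means differed in the same direction (0.49 in KO).

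Gabra4 did not pass in either genotype. It had 11.41 and 11.26 in KO cortex, against 11.21 and 11.12 in KO hippocampus, and 11.49 and 11.46 in WT cortex, against 11.09 and 11.29 in WT hippocampus. All 4 cortex values except the second KO one were above all 4 hippocampus values. The log2 difference was 0.17 ± 0.10 in KO (95% confidence interval -0.06 to 0.40, limma adjusted p = 0.311) and 0.28 ± 0.10 in WT (0.05 to 0.51, limma adjusted p = 0.104). For Gabrb1, whose start overlaps that of Gabra4 on the other strand, the intervals of the same difference ended at upper bounds of -0.29 in KO and -0.33 in WT, below the lower bounds of Gabra4. That contrast between the genes was not tested directly.

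Of the β subunits, Gabrb1 was lower in cortex. Its log2 intensity was 12.46 and 12.53 in KO cortex, against 12.94 and 13.05 in KO hippocampus, and 12.37 and 12.46 in WT cortex, against 13.03 and 12.87 in WT hippocampus. The cortex and hippocampus samples did not overlap. The log2 difference was -0.50 ± 0.09 in KO (SE, n = 2 per group, limma adjusted p = 0.0113) and -0.54 ± 0.09 in WT (limma adjusted p = 0.00842). Gabrb2, whose β2 subunit is part of the most common receptor of the adult brain, did not pass. It had 14.66 and 14.61 in KO cortex, against 14.29 and 14.46 in KO hippocampus, and 14.65 and 14.75 in WT cortex, against 14.57 and 14.63 in WT hippocampus. The log2 differences were 0.26 ± 0.08 in KO (95% confidence interval 0.06 to 0.46, limma adjusted p = 0.0886) and 0.10 ± 0.08 in WT (-0.10 to 0.30, limma adjusted p = 0.491).

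Gabrd, the δ subunit of extrasynaptic receptors, was the member with the largest excess in cortex. It had 14.23 and 14.17 in KO cortex, against 12.84 and 12.86 in KO hippocampus. In WT it had 14.49 and 14.45 in cortex, against 12.95 and 13.33 in hippocampus. Its 4 groups fell in the order WT cortex, KO cortex, WT hippocampus and KO hippocampus, with no overlap between neighbours. Steps between KO and WT also hold the probe's dye bias, and Gabrd passed in no KO over WT comparison of the main fit. The highest hippocampus value was that of the WT sample with high thalamic and choroid plexus markers. The log2 difference was 1.35 ± 0.12 in KO (SE, n = 2 per group, limma adjusted p = 0.00077) and 1.33 ± 0.12 in WT (limma adjusted p = 0.000772). Without the array of that sample the differences were 1.36 in KO (limma adjusted p = 0.00278) and 1.53 in WT (limma adjusted p = 0.00214).

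**Figure D3:**
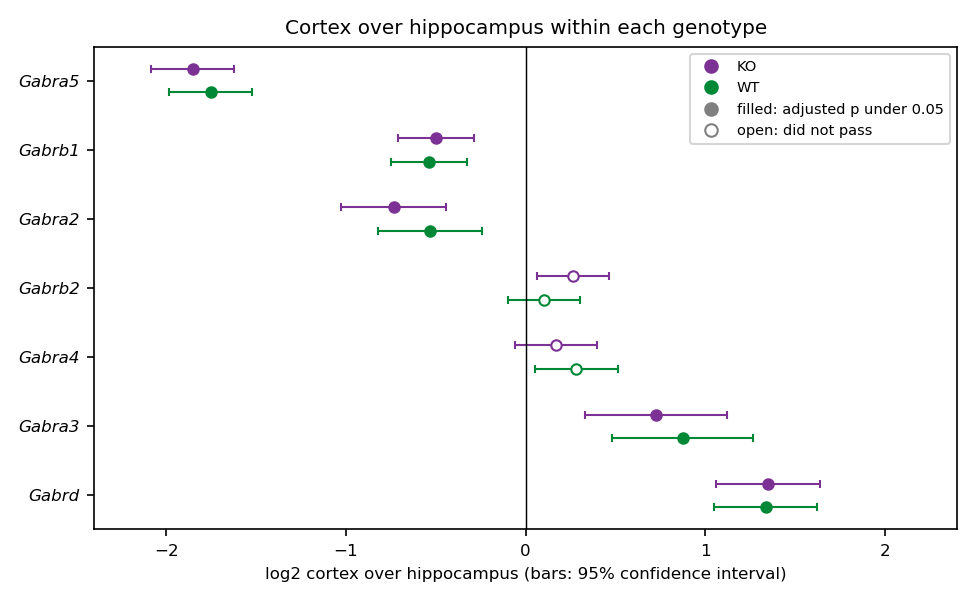
Log2 difference of cortex over hippocampus (x axis) with its 95% confidence interval for the 7 members (y axis), KO above WT for each gene; filled points passed the test and open points did not. The members run from -1.85 in KO and -1.75 in WT for Gabra5 to 1.35 in KO and 1.33 in WT for Gabrd.

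The calls of Gabra5 and Gabrd held under all 14 alternatives in both genotypes. Those of Gabra2, Gabra3 and Gabrb1 were lost when either cortex array was left out, which left 2 of the 7 members called in each genotype, with the same directions. Without the first and the second cortex array, in that order, KO values were -0.74 and -0.73 for Gabra2, 0.75 and 0.71 for Gabra3, and -0.46 and -0.54 for Gabrb1 (limma adjusted p of 0.103 to 0.207 over these fits). WT values were -0.55 and -0.51 for Gabra2, 0.94 and 0.80 for Gabra3, and -0.49 and -0.59 for Gabrb1 (limma adjusted p of 0.0904 to 0.233). Among all genes tested, 644 and 684 passed in KO without a cortex array, against 2489 with all arrays. Leaving out the second hippocampus array left all 5 called in each genotype, and leaving out the first left 4, as given above for Gabra3 in KO and Gabra2 in WT. The difference between the genotypes in these tissue differences is the KO effect in cortex minus that in hippocampus. It passed the test for 0 of 7 members and 0% of all genes tested (limma on log ratios, 750 genes at an unadjusted p under 0.05; the single-channel fit also gave 0, with 825), and ran from -0.20 for Gabra2 (95% confidence interval -0.68 to 0.27) to 0.16 for Gabrb2 (-0.12 to 0.44).

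Among further GABA-A and ρ subunit genes on the array, Gabra6, Gabre, Gabrp, Gabrq and Gabrr3 were not well above background on both arrays of any group. Gabrg3, a γ subunit, was higher in KO cortex by 0.43 ± 0.09 (SE, n = 2 per group, limma adjusted p = 0.0233), and its WT difference of 0.32 ± 0.09 did not pass (limma adjusted p = 0.0616). The Gabrg3 call was lost when any 1 of the 4 arrays was left out, with values of 0.29 to 0.49 over 14 alternatives and limma adjusted p up to 0.174. Gabrg1, Gabrr1 and Gabrr2 did not pass and lay between -0.27 and 0.09 in both genotypes, where Gabrr1 was not well above background in WT cortex.

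Of 16 genes of proteins that anchor or traffic the receptor, 1 was higher and 2 were lower in KO cortex, against 14.8% of all genes called, and 1 was higher and 3 were lower in WT cortex, against 15.0% of all genes. Slitrk3, a postsynaptic adhesion protein of inhibitory synapses, was lower, with -0.61 ± 0.08 in KO and -0.55 ± 0.08 in WT (limma adjusted p = 0.00286 and 0.00446). Plcl2, one of the PLC-related proteins that bind receptor β subunits, was higher by 0.32 ± 0.06 in KO and 0.37 ± 0.06 in WT (limma adjusted p = 0.0182 and 0.0108). Without one or other cortex array, and for Plcl2 also without a hippocampus array, these calls were lost, with limma adjusted p up to 0.0705 in KO and 0.0780 in WT for Slitrk3 and up to 0.189 in KO and 0.140 in WT for Plcl2. The median of the list was -0.06 in KO and -0.10 in WT.

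Of 9 genes of GABA synthesis, loading, uptake and breakdown, 2 were higher in KO cortex and 0 passed in WT, which is near the background of 14.8% of all genes in KO and 15.0% in WT. Slc32a1, the vesicular GABA transporter, had 0.43 ± 0.11 in KO (limma adjusted p = 0.0455) and 0.31 ± 0.11 in WT (limma adjusted p = 0.118). Slc6a13, a GABA transporter known in the meninges, had 1.22 ± 0.22 in KO (limma adjusted p = 0.0121) and -0.58 ± 0.22 in WT (limma adjusted p = 0.134). The choroid plexus list had medians of 2.43 in KO and -0.26 in WT in these comparisons, and its part in the Slc6a13 values was not tested. Slc32a1 and Slc6a13 lost their calls without either cortex array, and Slc32a1 also without the first hippocampus array, with limma adjusted p up to 0.293 for Slc32a1 and 0.157 for Slc6a13. Among 5 GABA-B receptor genes, Kctd12, an auxiliary subunit, was lower in cortex, with -1.16 ± 0.14 in KO and -0.99 ± 0.14 in WT (limma adjusted p = 0.00261 and 0.00499), and the other 4 did not pass. The Kctd12 call was lost without the second cortex array in KO and without either cortex array in WT (limma adjusted p up to 0.0604 in KO and 0.0894 in WT). Of the 5 chloride gradient genes tested, 0 passed.

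Of 14 markers of interneurons, the cells that release GABA, 4 were higher and 1 was lower in KO cortex, against 14.8% of all genes called, and the other 9 did not pass. In WT cortex 5 were higher and 2 were lower, against 15.0% of all genes, and the other 7 did not pass. Tac1, a neuropeptide precursor that striatal neurons also express, had the largest excess (1.84 ± 0.19 in KO and 2.61 ± 0.19 in WT, limma adjusted p = 0.00134 and 0.000352). Htr3a, a serotonin receptor of interneurons, had the lowest value among those that passed (-0.68 ± 0.12 in KO and -0.72 ± 0.12 in WT, limma adjusted p = 0.0101 and 0.00785), and its calls were lost without either cortex array (limma adjusted p up to 0.128 in KO and 0.108 in WT). The mean log2 level of the list was 11.13 in both KO cortex samples, against 10.74 and 11.04 in KO hippocampus, and 11.10 and 11.14 in WT cortex, against 10.81 and 10.86 in WT hippocampus.

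For KO over WT, none of the 7 subunit genes passed the test in cortex, in hippocampus or in the mean of both. The background in these comparisons was 0.0596% of all genes in cortex, 0.0179% in hippocampus and 10.9% in the mean of both tissues, so counts of 0 of 7 are near the background. The members' median log2 ratio was -0.07 in cortex, 0.03 in hippocampus and -0.02 in the mean, against 0.04, 0.02 and 0.03 over all genes. The largest value was that of Gabrd, whose log2 ratios were -0.27 and -0.28 in cortex and -0.10 and -0.47 in hippocampus. All 4 ratios were below 0, and the mean was -0.28 ± 0.07 (SE, n = 4 arrays, 95% confidence interval -0.47 to -0.08, limma adjusted p = 0.0784). KO was in Cy5 on all 4 arrays, so these ratios also hold the probe's dye bias. The share of all genes with 4 ratios of the same sign was not counted. In cortex the mean was -0.27 ± 0.10 (n = 2 arrays, limma adjusted p = 0.240) and in hippocampus -0.29 ± 0.10 (limma adjusted p = 0.201). Gabrd passed in the mean of both tissues with an intensity trend (limma adjusted p = 0.0498) and in the single-channel fit (limma adjusted p = 0.0461), and its mean was -0.19 (limma adjusted p = 0.136) without the second hippocampus array and -0.37 (limma adjusted p = 0.0737) without the first. Centring each array on the median of the genes tested, in place of loess, brought the Gabrd mean to -0.01 (limma adjusted p = 0.886).

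Gabrb2 came next, with ratios of 0.01 and -0.14 in cortex and -0.28 and -0.17 in hippocampus. Its mean was -0.15 ± 0.05 (SE, n = 4 arrays, 95% confidence interval -0.29 to -0.0039, limma adjusted p = 0.141), and under median centring it was 0.20 (limma adjusted p = 0.0371), in the opposite direction. Of all genes, 62.7% passed under that centring. No direction can be given for Gabrb2 that holds under both scalings.

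**Figure D4:**
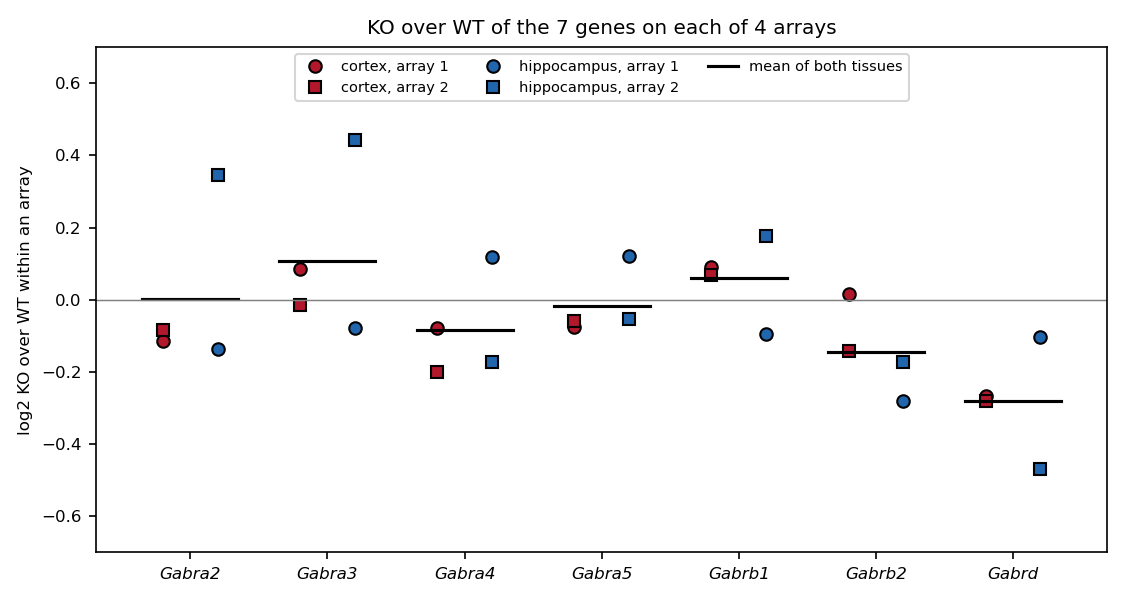
Log2 ratio of KO over WT within each array (y axis) for the 7 subunit genes (x axis); red points are cortex arrays, blue points hippocampus arrays, circles array 1, squares array 2, and black lines the mean of both tissues. Gabrd lies below 0 on all 4 arrays, between -0.10 and -0.47, and Gabra2 and Gabra3 lie at 0.35 and 0.44 on the second hippocampus array.

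The remaining members had means over both tissues between -0.08 and 0.11. Gabra2 had -0.12 and -0.08 in cortex and -0.14 and 0.35 in hippocampus, and Gabra3 had 0.09 and -0.01 in cortex and -0.08 and 0.44 in hippocampus. For both genes the second hippocampus array gave the one high ratio. For Gabra3 the 2 WT hippocampus samples were alike (12.69 and 12.73), and the KO samples differed (12.61 and 13.17). For Gabra2 the WT samples were 12.65 and 12.33, and the KO samples 12.52 and 12.68. Without the second hippocampus array the hippocampus values were -0.14 for Gabra2 and -0.08 for Gabra3. The second Gabra3 probe, not well above background in WT, gave -0.26 and -0.46 in cortex and -0.49 and -0.06 in hippocampus. With the mean of its probes, Gabra3 had -0.16 in cortex and -0.05 in hippocampus, so its direction depended on the choice of probe. Gabra4, Gabra5 and Gabrb1 had ratios between -0.20 and 0.18 on single arrays, and each gene had ratios on both sides of 0. Their 95% confidence intervals for the mean of both tissues were -0.26 to 0.09 for Gabra4, -0.15 to 0.12 for Gabra5 and -0.10 to 0.22 for Gabrb1. Under median centring Gabra3 had 0.34, Gabrb1 0.26 and Gabra5 0.17 in the mean of both tissues (limma adjusted p = 0.0352, 0.0199 and 0.0418), which for Gabra5 is the opposite direction. In that setting 62.7% of all genes passed, so these calls do not set the members apart.

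Gabrg1, Gabrg3, Gabrr1 and Gabrr2 did not pass in any KO over WT comparison. In the mean of both tissues 2 of 16 scaffold and trafficking genes were higher in KO, a share near the 10.9% of all genes called: Gabarapl1, a GABARAP-family protein of vesicle and receptor trafficking, by 0.51 ± 0.05 (limma adjusted p = 0.0255), and Gphn, which encodes gephyrin, the scaffold that anchors receptors at inhibitory synapses, by 0.25 ± 0.05 (limma adjusted p = 0.0443). Slc6a13 was lower, with -0.81 ± 0.07 (n = 4 arrays, limma adjusted p = 0.0232), with 0.09 in cortex and -1.71 in hippocampus. Its log2 intensity was 9.77 and 10.19 in KO hippocampus, against 11.34 and 12.04 in WT hippocampus. The median log2 ratio of the choroid plexus markers was 0.53 and 2.19 in cortex, and 0.08 and -2.89 in hippocampus. The part of choroid plexus or meninges in the Slc6a13 ratios was not tested. Among interneuron markers 1 of 14 passed, the neuropeptide gene Cort, which was higher by 0.54 ± 0.07 (limma adjusted p = 0.0285). Each of these 4 calls was lost when any single array was left out and when outlying local backgrounds were kept, and those of Gabarapl1 and Gphn also with Feature Extraction's processed signals, with no change of direction. Over 14 alternatives their limma adjusted p reached 0.136 for Gabarapl1, 0.407 for Gphn, 0.132 for Slc6a13 and 0.136 for Cort, while their values ran from 0.37 to 1.14, 0.12 to 0.43, -0.90 to -0.72 and 0.39 to 0.70 in the same order. The list medians were 0.03 for scaffold and trafficking genes, 0.02 for GABA metabolism and -0.01 for interneuron markers, against 0.03 over all genes.

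The genes whose pattern was most like that of each member were sought over the 8 samples, after the mean of each dye was subtracted. Both tissues enter these correlations, so they hold the tissue difference, and the samples share arrays in pairs. Gabra5 was most like Otos and Iqgap2 (Pearson r = 0.9997 for both over 8 samples), whose cortex over hippocampus differences were -1.69 and -1.58 in KO and -1.64 and -1.56 in WT. Gabrd was most like Dab2ip and Osbpl1a (r = 0.999 and 0.998), with 0.68 and 1.14 in KO and 0.65 and 1.09 in WT. Gabrb1 was most like Sec14l2 and Cblb (r = 0.998 for both), Gabra2 most like Epb4.1l4a and Wdr11 (r = 0.996 for both), and Gabra3 most like Pik3r6 (r = 0.998) and 2700094K13Rik (r = 0.997). For the 2 members that did not pass between tissues the highest values were 0.992 with Tnfrsf19 and 0.986 with Rassf6 for Gabra4, and 0.985 with Pfkm and 0.974 with Atg16l1 for Gabrb2.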

How the data were processed

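Total RNA of 8 samples was labelled with QuickAmp, KO in Cy5 and WT in Cy3, and hybridised to 4 two-colour Agilent arrays, per the labels. Feature Extraction 10.1.1.1 gave the spot intensities, which carry gene names and mm9 positions, per the file headers. The deposited value table holds log2 values per channel, normalised by the authors; how is not given in the sources used here. Limma is named in the submitters' processing notes.

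Here the background was corrected with normexp (offset 50) in limma 3.58.1 under R 4.3.3 with the data.table package (version 1.17.8), after outlying local backgrounds were set to the array's median, a step taken because earlier results of these data showed its effect. Arrays were normalised within by loess (span 0.3, control spots at weight 0), and channels between arrays by Aquantile. The brightest probe stood for a gene. KO over WT was fitted on the 4 log ratios, which pair KO and WT of one array with no term for the replicate number, and cortex over hippocampus on the 8 single channels (lmscFit, intraspot correlation 0.19), with Benjamini-Hochberg adjustment over 16778 genes at 0.05. The fits were checked on simulated data. The number of arrays limits the precision, with 2 residual degrees of freedom for ratios and 4 for channels.

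Named were the 7 members, the other GABA-A subunits (some are not reported here), of each further list the genes with the highest and lowest value among those that passed, and 2 genes most like each member. The members and lists were chosen with earlier results of these data known. Alternatives changed the background correction, normalisation, filter, probe choice, variance model, source of the values, replicate block and arrays. The labels do not say that replicate numbers pair the tissues: deviations of same-numbered samples correlated at 0.24 in KO and -0.08 in WT. Promoters came from RefSeq (GRCm38.p6).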

Additional observations from a re-analysis of the deposited data

How the results depend on the processing

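The 5 calls among the 7 members between tissues numbered 2 to 5 in KO and 2 to 5 in WT when 1 array was left out, lowest without either cortex array. With the replicate number as a block (replicate block), 5 members passed in KO and 5 in WT, and 0 in the difference of KO effects. With KO and WT of an array fitted as unpaired channels (no replicate block), 0 members passed for KO over WT. For KO over WT, median centring in place of loess called 1 member in hippocampus (Gabra5, 0.29) and 4 in the mean of both tissues, with Gabra5 at 0.17 and Gabrb2 at 0.20 in the opposite direction. Under that centring 8374 of 16778 genes passed in hippocampus and 10524 in the mean of both tissues. These calls therefore do not set the members apart. An intensity trend and the single-channel fit called 1 member each in that mean, Gabrd. Of the 16778 genes, 2259 passed in that mean with the intensity trend and 3382 in the single-channel fit. The cause was not tested. Of the single-gene values under alternatives, 529 kept direction and call, 17 lost a call, 5 gained one, 35 moved and 2 reversed.

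Over all genes, counts for KO over WT in the mean of both tissues were 1827, against 3 with outlying backgrounds kept, 1209 with Feature Extraction's processed signals, 1010 with the strict filter, 3361 with no filter, 3382 in the single-channel fit, 10524 under median centring and 0 or 1 with an array left out. In cortex 10 passed, against 0 to 7369, and in hippocampus 3, against 0 to 8374. With KO and WT of an array fitted as unpaired channels (no replicate block), 294 passed in cortex, 448 in hippocampus and 2418 in the mean. Between tissues 2489 in KO and 2510 in WT passed, against 1640 and 1703 with the replicate block. With one dye only, 2654 passed in KO and 1502 in WT. There are 2 arrays per tissue, and the absence of a dye swap leaves dye bias in every ratio.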
